A study of Mus musculus with 11 samples.

Results

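Cholesterol biosynthesis and its control were examined through 26 genes of mouse embryonic stem (ES) cells. The genes were a list of enzymes and regulators, chosen with earlier results of these data known. Shares of the list set beside those of all genes are therefore descriptions. Probes were found by matching the RefSeq accession of each probe to a mouse gene symbol. All 26 had a probe that was above background often enough to be tested, among 16279 genes tested in all. They were 8 genes of the mevalonate and isoprenoid steps, 3 genes that make and close squalene, 9 genes of the steps after squalene, 5 regulators of the SREBP transcription factors and 1 sterol transfer protein.

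There were 3 arrays of cells grown in serum/LIF, 5 of cells in 2i/LIF and 3 of cells in KOSR/LIF, each after 3 or more passages in its medium. Leukaemia inhibitory factor (LIF), a cytokine that sustains self-renewal of mouse ES cells, was in all 3 media. Beside LIF, the first contained animal serum. The 2i medium was serum-free and contained inhibitors of the kinases MEK and GSK3, and in the last a serum replacement (KOSR) took the place of serum. In 2i/LIF against serum/LIF, the absence of serum and the inhibitors therefore cannot be told apart. The labels give the lines HVJu5.1, HVJu9.3 and E14 and the background strain 129/Ola for every sample. The line in the title differs from that in the source name for 2i/LIF replicates 1 to 4, and the 2i/LIF arrays include repeats of a line. The sources used here do not say whether those repeats were separate cultures, or whether feeder cells were used. P-values therefore measure the spread between these samples. Each sample was hybridised to a one-colour Agilent array, and the number of arrays limits the precision.

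Cells build cholesterol from acetyl-CoA. Condensation steps lead to mevalonate, phosphorylation and decarboxylation give isoprenoid units, and these are joined to farnesyl diphosphate, the branch point to squalene and sterols or to longer isoprenoids for proteins. SREBP transcription factors are held in the endoplasmic reticulum by SCAP and the INSIG proteins while sterols are plentiful, and move to the Golgi for cleavage when sterols are scarce. Most genes of the pathway, and Insig1 itself, are known targets of SREBP.

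Levels below are log2 of the processed intensity minus the array's 75th percentile of it, so 0 is the 75th percentile of that array. They describe 1 probe across arrays and are not compared between genes. A change is a difference of mean levels between media, given with its standard error (SE) and as a fold. A gene passed when its p-value from limma's linear model over all 11 arrays, adjusted by Benjamini-Hochberg over all 16279 genes, was under 0.05. In these bulk samples, fewer cells that express a gene and less RNA per cell cannot be told apart.

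KOSR/LIF replicate 3 stood apart from the other arrays. Its 75th percentile of processed intensity was 65.3, against 176 to 538 on the other 10 arrays, and 43.7% of its probes were well above background, against 53.7% to 72.6%. The authors' deposited table of values was compared with the scanner files probe by probe. Its column for KOSR/LIF replicate 3 had a rank correlation of 0.842 with the scanner file of that sample and of 0.962 with that of serum/LIF replicate 3, the closest. The columns of 2i/LIF replicates 1 and 4 followed each other's scanner files (0.995 and 0.992), as did those of KOSR/LIF replicates 1 and 2 (0.997 each). These exchanges lie within a medium. The other 6 columns had 0.987 to 0.999 with their own files. Results that rest on KOSR/LIF replicate 3 are therefore given with and without that array.

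Acat2, the cytosolic thiolase that joins acetyl-CoA units at the start of the pathway, showed the difference between the sources. Its level was -0.24, -0.38 and 5.39 on KOSR/LIF replicates 1, 2 and 3, so the third array lay 5.69 above the mean of the other two. Only 0.104% of all genes tested differed by as much in either direction on that array. In the authors' deposited table the intensity of the same probe was 257, 273 and 262 in the KOSR/LIF columns. The changes of Acat2 against serum/LIF were 1.40 (SE 1.06) in 2i/LIF and 2.70 (SE 1.19) in KOSR/LIF, and neither passed. Without KOSR/LIF replicate 3 the change in 2i/LIF was still 1.40 but its SE fell to 0.36 and it passed (adjusted p 0.0211), while that in KOSR/LIF was 0.80 (adjusted p 0.439). In the scanner files Acat2 was lower in 2i/LIF than in KOSR/LIF by a difference of -1.30, and without that array the difference was 0.60.

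**Figure D1:**
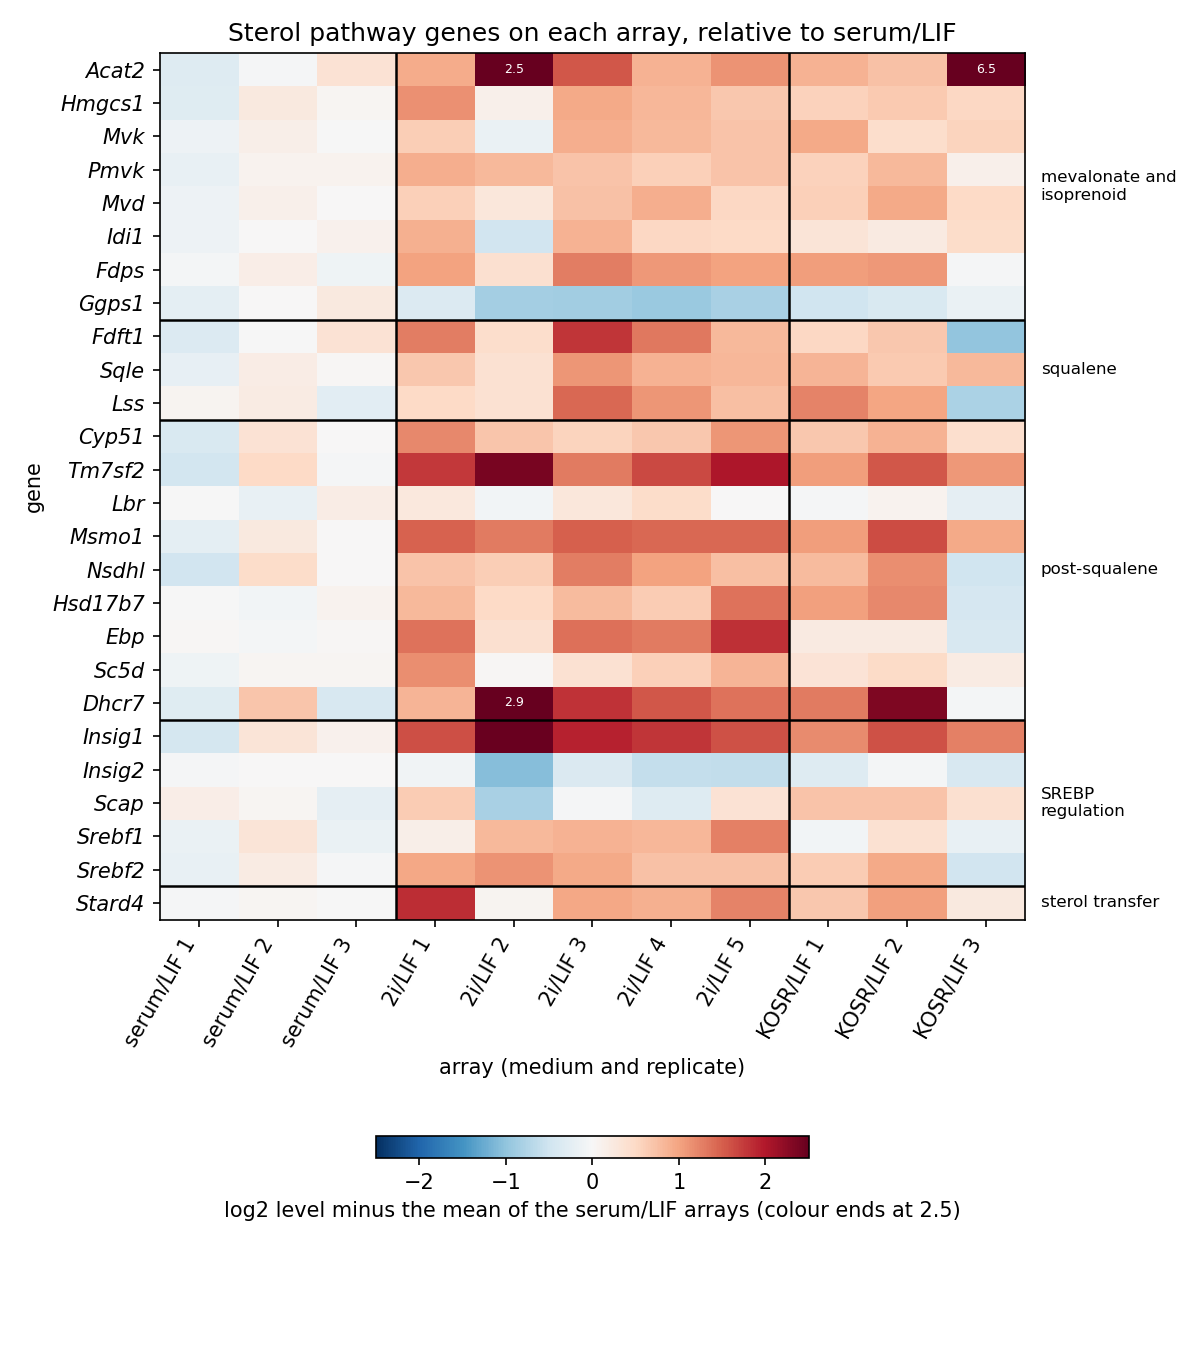
Log2 level of the 26 genes (rows, grouped by step) on each of the 11 arrays (columns, grouped by medium), minus the mean of the serum/LIF arrays. Red is above and blue below the serum/LIF mean, and numbers are printed where a value lies past the colour range. Most rows are red on the 2i/LIF arrays and on KOSR/LIF replicates 1 and 2, Ggps1 and Insig2 are blue, and Acat2 stands out on KOSR/LIF replicate 3.

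The median over the 26 genes of the level above the serum/LIF mean was 0.90, 0.40, 0.95, 0.85 and 0.82 on 2i/LIF replicates 1 to 5. It was 0.67, 0.77 and 0.17 on the KOSR/LIF arrays and -0.17, 0.14 and 0.02 on the serum/LIF arrays. On 2i/LIF replicates 1, 3, 4 and 5, 23 genes lay above all 3 serum/LIF arrays, and on 2i/LIF replicate 2 there were 18. KOSR/LIF replicates 1 and 2 had 22 and 23 such genes and replicate 3 had 14. The share of all genes so placed on a single array is not given here, so these counts are descriptions. Every array of 2i/LIF thus sat above every array of serum/LIF by this median, while KOSR/LIF replicate 3 sat close to serum/LIF replicate 2. 2i/LIF replicate 2 had the lowest level of its medium for 17 genes and the highest for 5 (Acat2, Tm7sf2, Dhcr7, Insig1 and Srebf2). KOSR/LIF replicate 3 had the lowest level of its medium for 19. Both of these arrays, and no others, were scanned on day 2. The part of the scan day in their low levels was not tested.

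In 2i/LIF against serum/LIF, 8 of the 26 sterol pathway genes rose (Insig1, Tm7sf2, Msmo1, Ebp, Fdps, Cyp51, Sqle and Pmvk), 1 fell (Ggps1) and 17 did not pass. That is 30.8% of the members higher, where 6.74% of all genes tested were higher and 9.98% lower in this comparison, 16.7% in all. The sign of the change was positive for 23 of the 26, against 52.1% of all genes tested. The median change was 0.83, against 0.03 over all genes tested. For 17 members no 2i/LIF array overlapped a serum/LIF array and 2i/LIF was higher, and for 2 members it was lower, where 11.7% and 14% of all genes were so separated. Of the 17 that did not pass, 7 had an adjusted p under 0.1, namely Hmgcs1, Mvd, Fdft1, Dhcr7, Srebf1, Srebf2 and Stard4.

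The count was sensitive to single arrays, the direction less so. Without KOSR/LIF replicate 3, which enters only through the shared spread, 15 members rose, and without 2i/LIF replicate 2, 14 rose. Leaving out any 1 serum/LIF array left 4 risen, and leaving out 2i/LIF replicate 3, 4 or 5 left 5, 5 or 4. Between 23 and 24 members were positive in each of these fits. The scan day, as the file headers give it, was used as a block because each of 3 days holds more than 1 medium. With it 18 members rose, the 8 named and Hmgcs1, Mvd, Fdft1, Lss, Nsdhl, Hsd17b7, Sc5d, Dhcr7, Srebf2 and Stard4. Within scan day 1 (2 arrays of each medium) 10 rose with a median change of 0.88, and Pmvk, Cyp51 and Tm7sf2 were not among them. Within scan day 3 the median was 0.85 and none passed by limma (8 higher at an unadjusted p under 0.05), with 1 serum/LIF array assumed to vary like the 2i/LIF arrays. With normexp background correction 5 rose (Tm7sf2, Msmo1, Ebp, Dhcr7 and Insig1). With the values of the authors' deposited table the number that rose was 16. Insig1, Tm7sf2 and Msmo1 passed in all 11 fits that left out 1 array.

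**Figure D2:**
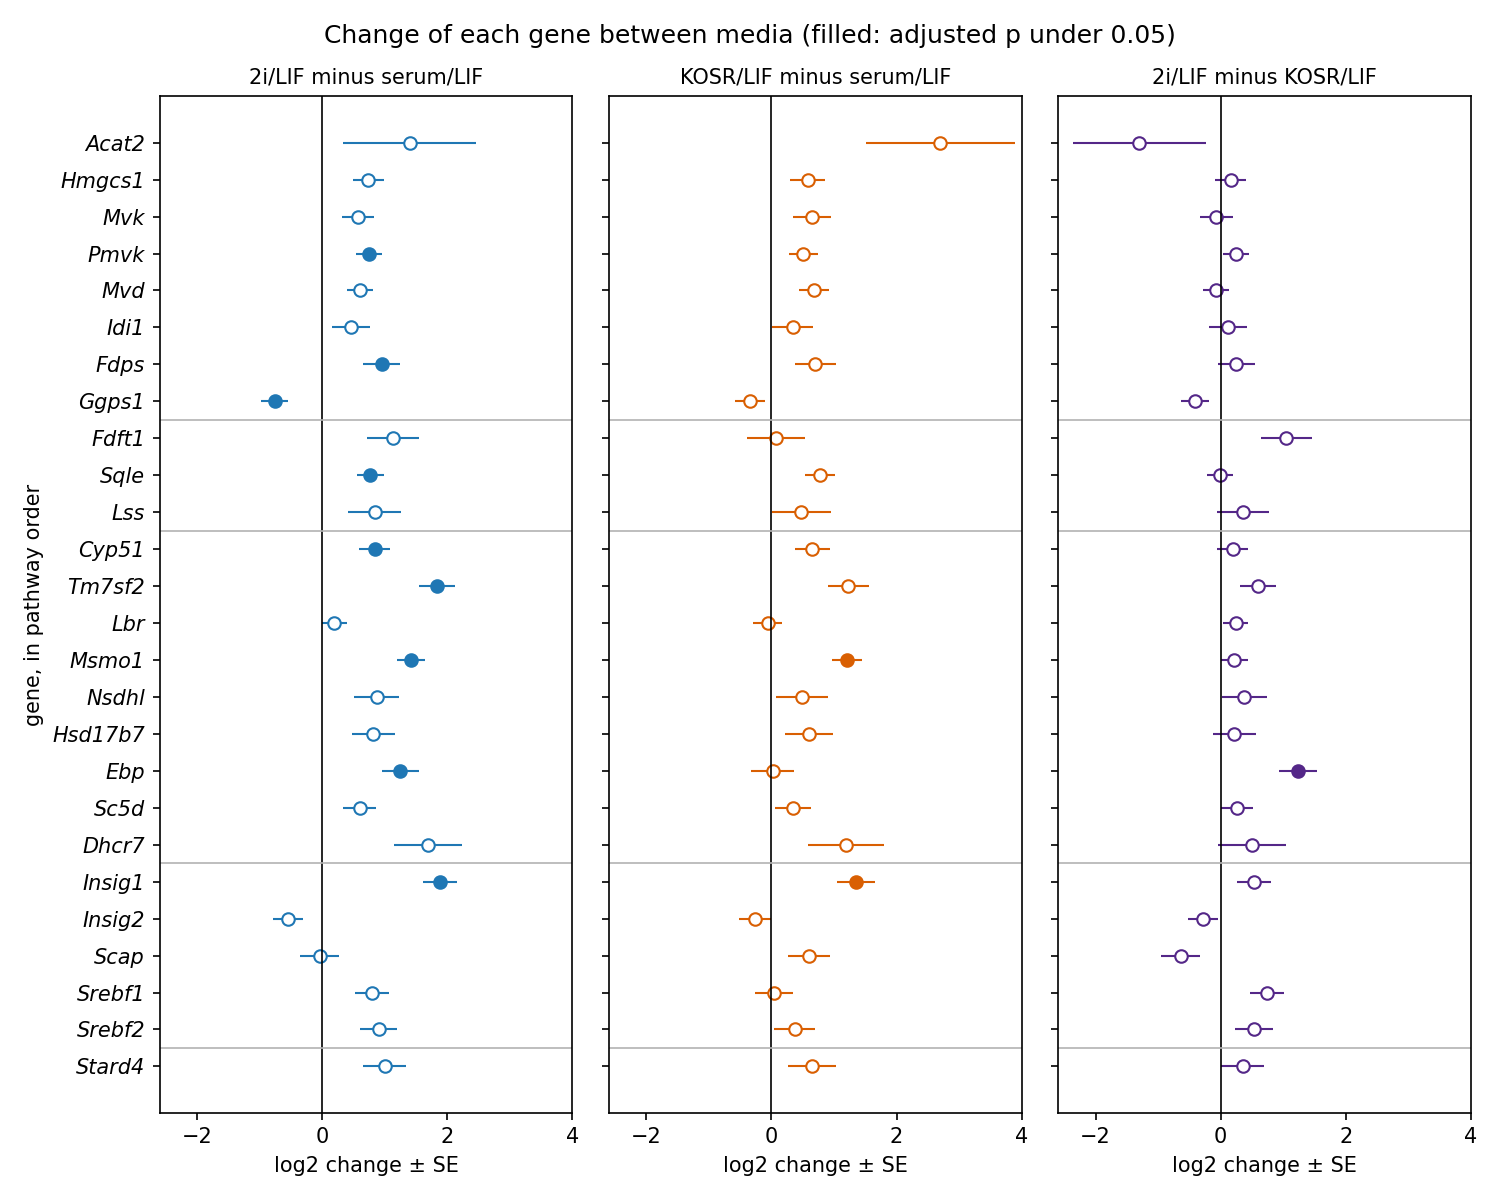
Change of each of the 26 genes in log2 units (horizontal axis) with its SE as a bar, in pathway order from top to bottom, for 3 comparisons of media. Filled points passed at an adjusted p under 0.05. In 2i/LIF against serum/LIF 8 filled points lie to the right of 0 and 1 (Ggps1) to the left, in KOSR/LIF against serum/LIF there are 2 (Msmo1 and Insig1), and in 2i/LIF against KOSR/LIF 1 (Ebp).

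In the mevalonate and isoprenoid steps, Pmvk and Fdps rose in 2i/LIF against serum/LIF, Ggps1 fell and the other 5 of 8 did not pass. The median change was 0.68, and over all genes tested 6.74% were higher and 9.98% lower in this comparison. Pmvk, phosphomevalonate kinase, had levels of 3.76, 4.03 and 4.02 in serum/LIF and of 4.85, 4.75, 4.64, 4.53 and 4.65 in 2i/LIF. The media did not overlap, and the change was 0.75 (SE 0.21), a 1.68-fold rise with an adjusted p of 0.0294. In KOSR/LIF the levels of Pmvk were 4.52, 4.75 and 4.06, with 2 arrays close to or in the 2i/LIF range and replicate 3 close to serum/LIF. The call in 2i/LIF was lost without any 1 serum/LIF array or 2i/LIF replicate 1, 3 or 5 (adjusted p 0.0505 to 0.149).

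Fdps makes farnesyl diphosphate, the last intermediate before the sterol branch. Its levels were 4.97, 5.19 and 4.91 in serum/LIF and 6.03, 5.42, 6.31, 6.10 and 6.02 in 2i/LIF, which did not overlap. The change was 0.95 (SE 0.30), 1.93-fold, with an adjusted p of 0.047. The call was lost in 8 of the 11 fits that left out 1 array (0.0535 to 0.152) and kept only without 2i/LIF replicate 2 or KOSR/LIF replicate 2 or 3. On the KOSR/LIF arrays Fdps was at 6.07, 6.11 and 4.99, so replicates 1 and 2 were as high as 2i/LIF and replicate 3 lay among the serum/LIF arrays. Its change in KOSR/LIF against serum/LIF was 0.70 (adjusted p 0.283), and 1.07 (adjusted p 0.0586) without that array.

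Ggps1 lengthens farnesyl diphosphate to geranylgeranyl diphosphate, which is attached to small GTPases and is used outside the sterol branch. It was the 1 member that fell, from 1.32, 1.59 and 1.81 in serum/LIF to 1.23, 0.73, 0.70, 0.64 and 0.77 in 2i/LIF. Replicate 1 of 2i/LIF stood above the other 4 arrays of its medium but below all serum/LIF arrays. The change was -0.76 (SE 0.22), a level 1.69-fold lower, with an adjusted p of 0.0305. A further Ggps1 probe had a change of 0.14 in the other direction (adjusted p 0.761 over all probes), and with the mean of both probes the change was -0.31 and did not pass (adjusted p 0.352). The call was also lost without serum/LIF replicate 2 or 3 or 2i/LIF replicate 3, 4 or 5 (0.0594 to 0.145). In KOSR/LIF the levels were 1.07, 1.19 and 1.40, overlapping both other media.

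The remaining enzymes of these steps, the synthase Hmgcs1, the kinase Mvk, the decarboxylase Mvd and the isomerase Idi1, had changes of 0.46 to 0.74 in 2i/LIF and of 0.34 to 0.68 in KOSR/LIF against serum/LIF, none of which passed. 2i/LIF replicate 2 was the lowest of its medium for all 4. It stood at 4.80 against 5.34 to 5.81 for Hmgcs1, at 3.27 against 4.04 to 4.33 for Mvk and at 2.95 against 3.92 to 4.31 for Idi1. Mvk and Idi1 on that array lay below the serum/LIF levels of 3.29 to 3.58 and 3.29 to 3.54. Without it the changes of Hmgcs1, Mvk, Mvd and Idi1 in 2i/LIF passed.

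Of the 3 genes of the squalene steps, Sqle rose in 2i/LIF and Fdft1 and Lss did not pass. All 3 were above serum/LIF on every 2i/LIF array, as were 11.7% of all genes. Sqle is the epoxidase that makes the substrate of ring closure and is a control point of the sterol branch. Its levels were 3.82, 4.21 and 4.06 in serum/LIF and 4.70, 4.41, 5.13, 4.90 and 4.86 in 2i/LIF. KOSR/LIF was at 4.88, 4.68 and 4.85, inside the 2i/LIF range on all 3 arrays. The change in 2i/LIF was 0.77 (SE 0.21), 1.71-fold, with an adjusted p of 0.0273, and that in KOSR/LIF was 0.78 (SE 0.24) with an adjusted p of 0.0959, which did not pass. The call in 2i/LIF was lost without any 1 serum/LIF array or 2i/LIF replicate 3, 4 or 5 (0.0529 to 0.146).

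Squalene synthase Fdft1 had a change of 1.13 (SE 0.41, adjusted p 0.0871) and lanosterol synthase Lss one of 0.84 (SE 0.42, adjusted p 0.239) in 2i/LIF. Both had a low KOSR/LIF replicate 3. Fdft1 was at 3.28, 3.44 and 1.77 and Lss at 1.99, 1.73 and -0.04 on the 3 KOSR/LIF arrays. Without that array both passed in 2i/LIF against serum/LIF.

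Steps after squalene held 4 of the 8 members that rose in 2i/LIF, namely Tm7sf2, Msmo1, Ebp and Cyp51. Over all genes tested, 6.74% were higher in this comparison. All 9 members of these steps had positive changes, with a median of 0.87. For 7 of them every 2i/LIF array lay above every serum/LIF array, as it did for 11.7% of all genes.

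Tm7sf2 is a sterol reductase of the endoplasmic reticulum that removes the double bond left by the demethylase Cyp51. Its levels were 0.79, 1.74 and 1.22 in serum/LIF and 3.01, 3.62, 2.55, 2.91 and 3.28 in 2i/LIF. KOSR/LIF stood at 2.30, 2.80 and 2.34, above every serum/LIF array and overlapping 2i/LIF. The change in 2i/LIF was 1.83 (SE 0.29), 3.55-fold, with an adjusted p of 0.00113, and 1.78 (adjusted p 0.00814 over all probes) by its other probe. In KOSR/LIF it was 1.23 (SE 0.33), with an adjusted p of 0.0573, which did not pass. Lbr, a nuclear membrane protein with the same reductase activity, was between 3.52 and 3.89 in serum/LIF, between 3.64 and 4.16 in 2i/LIF and between 3.48 and 3.78 in KOSR/LIF. These ranges overlapped, and its change in 2i/LIF was 0.19 (SE 0.20, adjusted p 0.662). Its other probe had a change of 0.56 there, which did not pass (adjusted p 0.645 over all probes). In KOSR/LIF against serum/LIF the 2 Lbr probes differed in sign, at -0.06 and 1.025, and neither passed (adjusted p 0.918 and 0.449 over all probes). The difference between the changes of both reductases was not tested.

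Msmo1 is the monooxygenase that begins removal of the methyl groups after the first reduction. Levels were 3.59, 4.08 and 3.86 in serum/LIF and 5.32, 5.15, 5.33, 5.27 and 5.27 in 2i/LIF, an SD of 0.07 between the 2i/LIF arrays. The KOSR/LIF arrays stood at 4.88, 5.48 and 4.79, again above every serum/LIF array. The change was 1.42 (SE 0.22), 2.68-fold, in 2i/LIF with an adjusted p of 0.000845. It was 1.21 (SE 0.24), 2.31-fold, in KOSR/LIF with an adjusted p of 0.0183.

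Ebp, the isomerase that shifts the ring double bond, separated 2i/LIF from both other media. It was at 3.74, 3.67 and 3.75 in serum/LIF, at 5.07, 4.12, 5.1, 5.01 and 5.55 in 2i/LIF and at 3.95, 3.94 and 3.31 in KOSR/LIF. The lowest 2i/LIF array, replicate 2, was above the highest array of the other media. The change was 1.25 (SE 0.30), 2.38-fold, against serum/LIF (adjusted p 0.0127) and 1.24 (SE 0.30), 2.36-fold, against KOSR/LIF (adjusted p 0.0165). Without serum/LIF replicate 2 the former no longer passed (adjusted p 0.0524), and without KOSR/LIF replicate 3 the latter did not (adjusted p 0.0662). In KOSR/LIF against serum/LIF the change of Ebp was 0.02 (SE 0.34).

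Cyp51, the demethylase that acts on lanosterol, had levels of -0.59, 0.16 and -0.20 in serum/LIF and of 1.00, 0.48, 0.34, 0.46 and 0.89 in 2i/LIF, without overlap. KOSR/LIF was at 0.47, 0.65 and 0.21. The change in 2i/LIF was 0.84 (SE 0.25), 1.79-fold, with an adjusted p of 0.0366. In KOSR/LIF it was 0.65 (SE 0.28) and did not pass (adjusted p 0.229). The call in 2i/LIF was lost without serum/LIF replicate 1 or 3, 2i/LIF replicate 1, 4 or 5 or KOSR/LIF replicate 1 (0.0511 to 0.201).

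The other members after squalene, besides Lbr, did not pass in any comparison. Nsdhl and Hsd17b7, which complete removal of the methyl groups, had changes of 0.87 and 0.82 in 2i/LIF, and the desaturase Sc5d one of 0.60. Dhcr7, the reductase that makes cholesterol from its direct precursor in one branch, had the largest change among members that did not pass in 2i/LIF against serum/LIF, 1.69 (SE 0.55, adjusted p 0.0561). Dhcr7 was at 0.34, 1.34 and 0.25 in serum/LIF, at 1.50, 3.54, 2.45, 2.19 and 2.00 in 2i/LIF and at 1.94, 2.97 and 0.60 in KOSR/LIF. Its 2i/LIF and serum/LIF arrays did not overlap, but the spread within each medium was wide, with SDs of 0.61, 0.76 and 1.19 in that order of serum/LIF, 2i/LIF and KOSR/LIF.

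Among the regulators, Insig1 rose in 2i/LIF and in KOSR/LIF against serum/LIF, and Insig2, Scap, Srebf1 and Srebf2 did not pass in any comparison. Insig1 is a sterol-sensing retention factor whose gene is itself an SREBP target. It was at -1.95, -1.18 and -1.40 in serum/LIF, at 0.10, 0.97, 0.42, 0.27 and 0.08 in 2i/LIF and at -0.33, 0.09 and -0.25 in KOSR/LIF. Serum/LIF lay below both other media without overlap, and 2i/LIF and KOSR/LIF met at about 0.1. The change in 2i/LIF was 1.88 (SE 0.27), 3.68-fold, with an adjusted p of 0.000524. In KOSR/LIF it was 1.35 (SE 0.30), 2.55-fold, with an adjusted p of 0.027.

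Insig2 encodes a partner with the same retention role. It was at 1.93, 1.96 and 1.96 in serum/LIF, at 1.86, 0.88, 1.58, 1.35 and 1.34 in 2i/LIF and at 1.63, 1.91 and 1.54 in KOSR/LIF. All arrays of both other media lay below the serum/LIF arrays, whose SD was 0.02. The changes were -0.55 (SE 0.24, adjusted p 0.152) in 2i/LIF and -0.26 (SE 0.26, adjusted p 0.635) in KOSR/LIF.

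Srebf2, which encodes the SREBP that chiefly drives the sterol genes, was at 0.84, 1.24 and 1.01 in serum/LIF and at 1.99, 2.16, 1.98, 1.76 and 1.76 in 2i/LIF, without overlap. On the KOSR/LIF arrays it was at 1.66, 1.97 and 0.56. The change in 2i/LIF was 0.90 (SE 0.30) and did not pass (adjusted p 0.0599). Without KOSR/LIF replicate 3 it passed.

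Srebf1 encodes the SREBP better known for fatty acid genes. Its levels were -2.36, -1.88 and -2.37 in serum/LIF, -2.05, -1.39, -1.34, -1.37 and -0.95 in 2i/LIF and -2.28, -1.82 and -2.39 in KOSR/LIF. It was the 1 member not well above background on every array, being so on 2 of 3 in KOSR/LIF. Replicate 1 of 2i/LIF lay among the serum/LIF arrays, and the change was 0.79 (SE 0.27, adjusted p 0.0713).

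Scap, the escort that carries SREBP to the Golgi, was at 3.21, 3.08 and 2.82 in serum/LIF, 3.67, 2.23, 3.00, 2.72 and 3.40 in 2i/LIF and 3.74, 3.75 and 3.44 in KOSR/LIF. The change in 2i/LIF was -0.04 (SE 0.31). Against KOSR/LIF, 2i/LIF differed by -0.64 (SE 0.31, adjusted p 0.206). With the scan day as a block Scap was lower in 2i/LIF than in KOSR/LIF (-0.85, adjusted p 0.0458).

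Stard4, a cytosolic protein that moves sterol between membranes, stood between 1.1 and 1.18 in serum/LIF, between 1.21 and 2.99 in 2i/LIF and between 1.39 and 2.17 in KOSR/LIF. Both media lay above serum/LIF without overlap, and the changes of 1.00 (SE 0.34, adjusted p 0.0714) and 0.65 (SE 0.39, adjusted p 0.402) did not pass. Its other probe had a change of 1.30 in 2i/LIF with an adjusted p of 0.0283 over all probes.

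**Figure D3:**
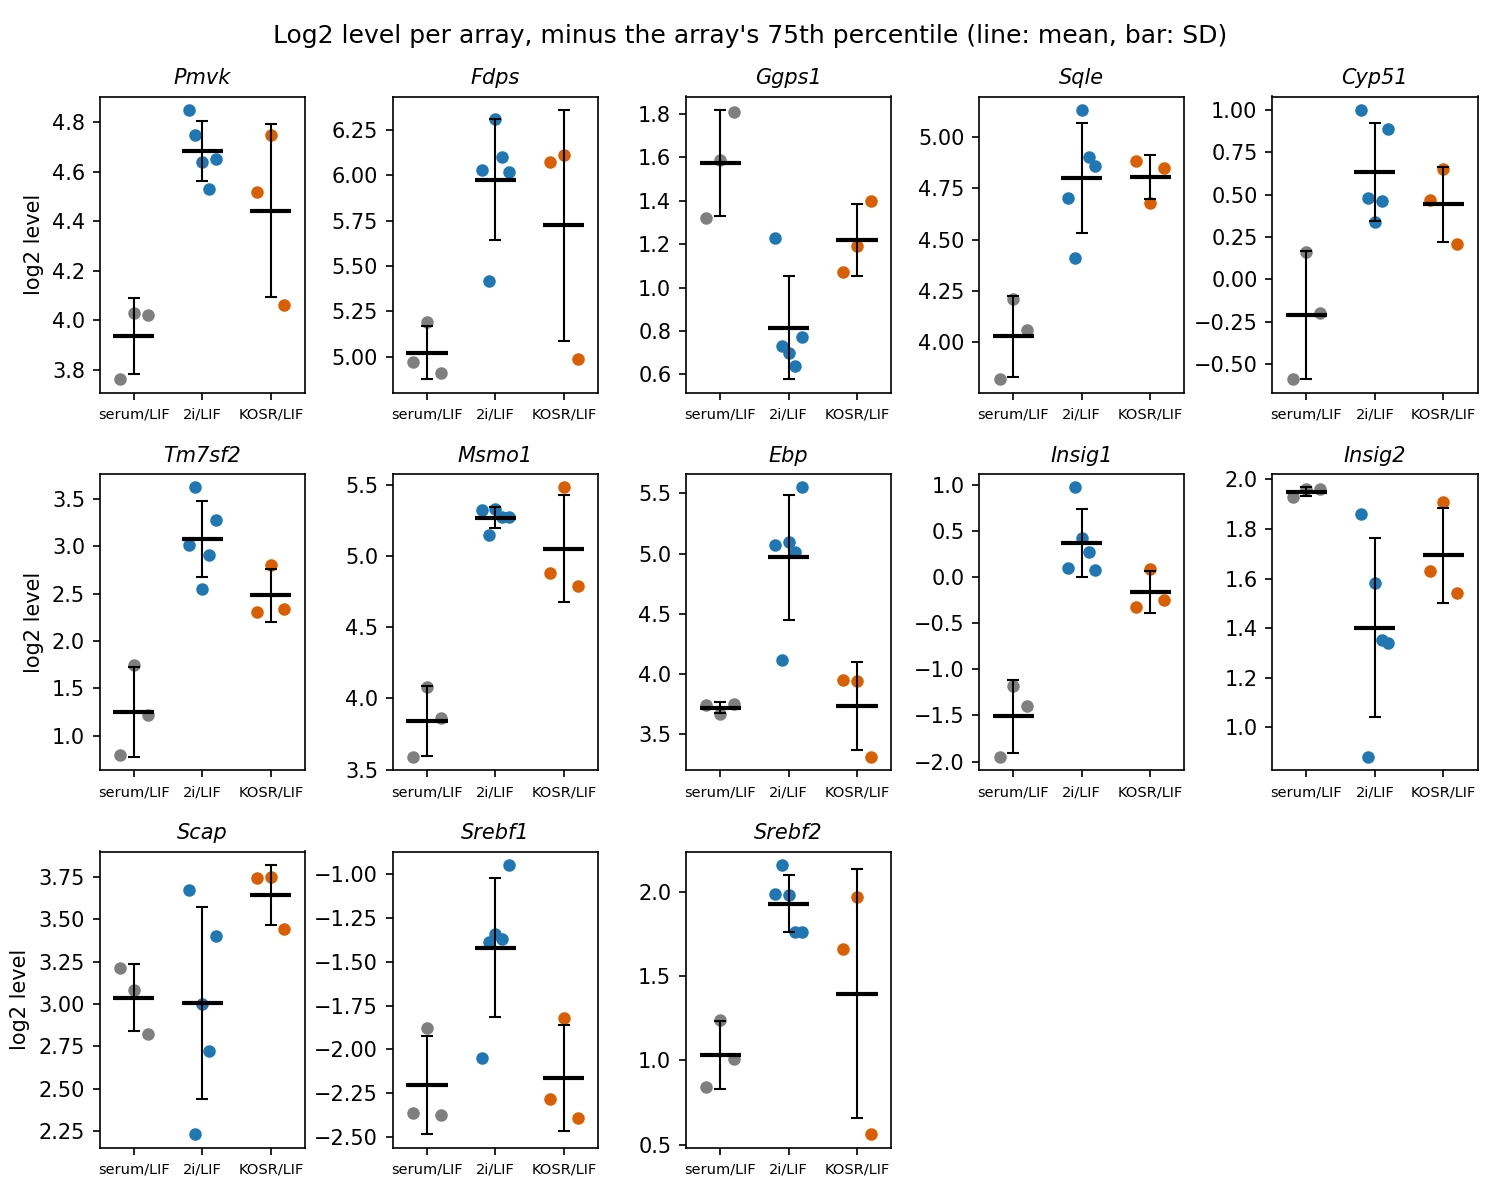
Log2 level per array (vertical axis, its range set for each gene; points) in serum/LIF (grey), 2i/LIF (blue) and KOSR/LIF (orange) for the genes that passed in a comparison and for the regulators, with the mean as a line and the SD as a bar. Insig1, Tm7sf2 and Msmo1 lie above serum/LIF on all 2i/LIF and KOSR/LIF arrays, Ebp is high in 2i/LIF, and Ggps1 is low there.

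The promoters of Insig1 and Tm7sf2 are shown because those members had the largest changes that passed in 2i/LIF, and that of Hmgcs1 because it alone held the searched sterol regulatory element. Sequences are the 250 bases before the RefSeq start of each gene in GRCm38.p6, read 5′ to 3′ on the gene's strand, at chr5:28071162-28071411 (plus strand), chr19:6067851-6068100 (minus strand) and chr13:119690101-119690350 (plus strand). Capitals mark matches on either strand to a sterol regulatory element (TCACNCCAC), a CCAAT box (CCAAT) or a GC box (GGGCGG).
Insig1: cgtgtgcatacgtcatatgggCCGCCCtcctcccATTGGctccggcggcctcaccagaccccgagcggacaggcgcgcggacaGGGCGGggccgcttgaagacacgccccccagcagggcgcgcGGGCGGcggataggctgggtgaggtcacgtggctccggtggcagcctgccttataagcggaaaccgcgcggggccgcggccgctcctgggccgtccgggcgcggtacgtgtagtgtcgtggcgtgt
Tm7sf2: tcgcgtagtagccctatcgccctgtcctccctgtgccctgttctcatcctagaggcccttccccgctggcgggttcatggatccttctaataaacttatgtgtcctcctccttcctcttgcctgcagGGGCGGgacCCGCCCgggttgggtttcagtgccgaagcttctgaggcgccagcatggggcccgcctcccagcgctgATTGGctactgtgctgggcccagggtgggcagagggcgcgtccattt
Hmgcs1: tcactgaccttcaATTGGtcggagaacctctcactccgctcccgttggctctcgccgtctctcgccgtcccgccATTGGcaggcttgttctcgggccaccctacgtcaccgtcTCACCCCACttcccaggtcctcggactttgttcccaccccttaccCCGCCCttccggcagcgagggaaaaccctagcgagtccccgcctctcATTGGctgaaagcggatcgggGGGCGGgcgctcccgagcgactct

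The Insig1 window held 1 CCAAT box and 3 GC boxes, and the Tm7sf2 window 1 and 2. Neither held the searched sterol regulatory element, which Hmgcs1 held 137 bases before its start together with 3 CCAAT boxes and 2 GC boxes. Of the 26 genes, 22 had an entry in the RefSeq promoter table, with 30 promoters between them. A CCAAT box occurred in at least 1 promoter of 20 of the 22 (90.9%), against 39.9% of the 12911 tested genes with an entry and 37.5% of all 27025 genes with an entry. A GC box also occurred in 20 of 22 members, against 56.9% of those tested genes. The sterol regulatory element occurred in 1 of 22 (4.55%), against 1.29%. A match is a description of the letters, and other forms of these elements were not searched.

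In KOSR/LIF against serum/LIF, Msmo1 and Insig1 rose, no member fell by limma and 24 did not pass. That is 7.69% of the members higher, where 2.37% of all genes tested were higher and 2.21% lower, 4.58% in all. At an unadjusted p under 0.05, 7 members were higher and 0 lower. The change was positive for 23 members, against 47.7% of all genes tested, with a median of 0.59 against -0.03 over all genes. For 14 members the KOSR/LIF arrays lay above the serum/LIF arrays without overlap, and for 1 (Insig2) below, where 12.4% and 16% of all genes were so separated. By step the median changes were 0.61 for mevalonate and isoprenoid genes, 0.48 for squalene genes and 0.60 for genes after squalene. This comparison shares its serum/LIF arrays with the one above, so their values are given side by side and their likeness was not tested.

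Both calls in KOSR/LIF rested on few arrays. Msmo1 was lost without serum/LIF replicate 1 or 3 or KOSR/LIF replicate 2 (adjusted p 0.0585 to 0.0956). Insig1 was lost without serum/LIF replicate 1 or 3 or KOSR/LIF replicate 1 or 2 (0.0607 to 0.124). Insig1 was also lost with the scan day as a block (1.19, adjusted p 0.0509), where Fdps, Msmo1 and Stard4 passed, and with the authors' deposited table (0.92, adjusted p 0.111), where Fdps, Sqle, Msmo1 and Hsd17b7 passed. Within scan day 1 neither Msmo1 nor Insig1 passed (adjusted p 0.0682 and 0.071) and Hsd17b7 did. Without KOSR/LIF replicate 3 the members that rose were Msmo1, Insig1 and Hsd17b7, and the median change of the 26 was 0.76. When arrays were scaled to their median in place of the 75th percentile, the median change of all genes in KOSR/LIF against serum/LIF became -0.41 and that of the members 0.22, no member passed by limma (2 higher at an unadjusted p under 0.05) and 17 were positive. Over all genes, 386 were higher and 359 lower under the former scaling, 141 and 432 under the latter and 250 and 358 with quantile normalization. Such scaling shifts all genes of an array alike, so the gap of 0.63 between the members' median and that of all genes cannot move with it. With normexp background correction the members' median was 0.39 and the gap 0.36, and no member passed by limma (5 higher at an unadjusted p under 0.05). With quantile normalization the gap was 0.71.

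Between 2i/LIF and KOSR/LIF, 1 of the 26 genes passed. Ebp was higher in 2i/LIF, no member was lower by limma and 25 did not pass. That is 3.85% of the members higher, where 5.95% of all genes tested were higher and 8.72% lower, 14.7% in all. At an unadjusted p under 0.05, 3 members were higher and 0 lower. The median change was 0.24, against 0.02 for all genes, and 19 of the 26 were positive. Ebp was also the 1 member whose arrays did not overlap, where 9.04% of all genes lay higher in 2i/LIF in that way. Without KOSR/LIF replicate 3 no member passed by limma (1 higher at an unadjusted p under 0.05), 16 were positive and the median was 0.08. With median scaling the median of all genes became 0.31 and that of the members 0.53, and 912 genes were higher and 831 lower, against 969 and 1419. The largest changes that did not pass were those of Acat2 (-1.30) and Fdft1 (1.05), and both rest in part on KOSR/LIF replicate 3. Fdft1 was at 1.77 on that array and at 3.28 and 3.44 on the other KOSR/LIF arrays. Its change ran from 0.42 to 1.36 over the alternatives that were tested. SEs ran from 0.20 for Lbr to 1.06 for Acat2, and Insig1, at 0.53 (SE 0.27), did not pass (adjusted p 0.233).

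**Figure D4:**
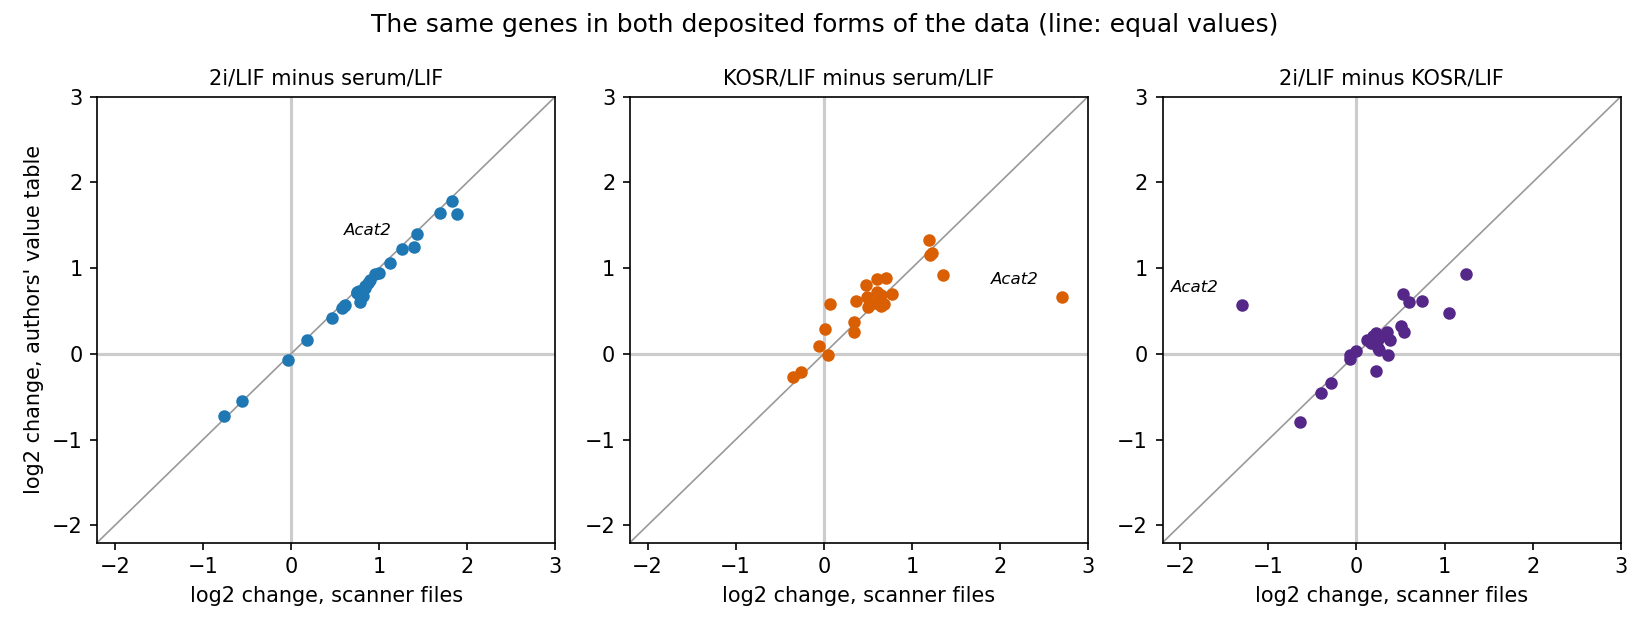
Log2 change of the 26 genes (points) from the scanner files (horizontal axis) and from the authors' deposited table of values (vertical axis) in 3 comparisons of media, with the line of equal values. Points lie near the line for 2i/LIF against serum/LIF, while Acat2 lies off it in both comparisons with KOSR/LIF, at 2.70 against 0.67 and at -1.30 against 0.58.

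Genes around the pathway were read from lists of related functions. Of 8 measured genes of sterol efflux and of LXR, the receptor that senses oxysterols, 2 rose in 2i/LIF against serum/LIF, 3 fell in KOSR/LIF against serum/LIF and 3 were higher in 2i/LIF than in KOSR/LIF. Over all genes tested, 6.74%, 2.21% and 5.95% passed in those directions. The list medians were -0.22, -0.43 and 0.44 in that order. The transporter Abcg1 was at 1.04, 1.49 and 1.22 in serum/LIF, at 2.29, 2.34, 2.22, 2.37 and 1.77 in 2i/LIF and at -1.82, -1.23 and -1.30 in KOSR/LIF, with no overlap between any of the media. Its change was -2.70 (SE 0.26), 6.49-fold lower, in KOSR/LIF (adjusted p 0.00111) and 0.95 (SE 0.23) in 2i/LIF (adjusted p 0.0137), and 3.65 (SE 0.23) between 2i/LIF and KOSR/LIF, 12.5-fold (adjusted p 1.28e-05). The call in 2i/LIF against serum/LIF was lost without serum/LIF replicate 1 or 3 (0.0552 to 0.0817), and the other calls of Abcg1 held in all 11 fits that left out 1 array.

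The transporter Abca1 was at 0.64, 0.94 and -0.04 in serum/LIF and at -1.84, -1.31 and -2.42 in KOSR/LIF, on 2 of whose arrays it was well above background. Its change in KOSR/LIF was -2.37 (SE 0.46, adjusted p 0.0163), lost without serum/LIF replicate 1 or 2 (0.0667 to 0.0714). Apoe, the lipid carrier, fell in KOSR/LIF by 1.39 on the log2 scale (SE 0.32, adjusted p 0.031), and leaving out any 1 serum/LIF array or KOSR/LIF replicate 1 or 2 ended that call (0.0702 to 0.116). Mylip, the ligase that degrades lipoprotein receptors, rose in 2i/LIF by 1.27 (SE 0.27, adjusted p 0.00728) and lost the call only without serum/LIF replicate 1 (0.0507). Between 2i/LIF and KOSR/LIF, Abca1 differed by 1.97 and Mylip by 1.88 (adjusted p 0.00756 and 0.000854).

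Of 15 measured fatty acid genes known as SREBP targets, 5 rose in 2i/LIF against serum/LIF (33.3%), none passed in KOSR/LIF against serum/LIF by limma (2 higher at an unadjusted p under 0.05) and 3 were higher in 2i/LIF than in KOSR/LIF. Over all genes tested 6.74% were higher in the first comparison, 2.37% in the second and 5.95% in the last. The medians were 0.69, 0.23 and 0.60. The desaturase Scd1 was at 0.16, 1.79 and 1.38 in serum/LIF, at 3.62, 4.26, 3.78, 4.04 and 4.01 in 2i/LIF and at 1.60, 2.50 and 1.03 in KOSR/LIF. Its change in 2i/LIF was 2.83 (SE 0.40), 7.12-fold (adjusted p 0.000469), and 2.23 (SE 0.40) against KOSR/LIF (adjusted p 0.00282). Scd2 changed by 1.82 (SE 0.29, adjusted p 0.00123) and by 1.49 (SE 0.29, adjusted p 0.00528) in the same comparisons. Both held in all 11 fits that left out 1 array in each comparison.

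Fads1, a further desaturase, rose in 2i/LIF by 1.57 (SE 0.41, adjusted p 0.0194), lost without serum/LIF replicate 1 or 3 (0.0524 to 0.104). The other genes of the list that rose there were the desaturase Fads2 (1.40, SE 0.26, adjusted p 0.00317) and the malic enzyme Me1 (1.28, SE 0.35, adjusted p 0.0236, lost without serum/LIF replicate 1 or 3 or 2i/LIF replicate 5 at 0.0528 to 0.104), both outside the rule for named genes. Acsl3, which activates fatty acids, was higher in 2i/LIF than in KOSR/LIF by 1.03 (SE 0.30, adjusted p 0.0381) and lost the call in 6 of the 11 fits that left out 1 array, without serum/LIF replicate 1, 2i/LIF replicates 1, 4 or 5 or KOSR/LIF replicates 1 or 3 (0.0547 to 0.145). Fasn and Acaca, the synthase and the carboxylase that build fatty acids, had changes of -0.02 and -0.10 in 2i/LIF, with SEs of 0.26 each, and were chosen for mention after their values were seen.

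**Figure D5:**
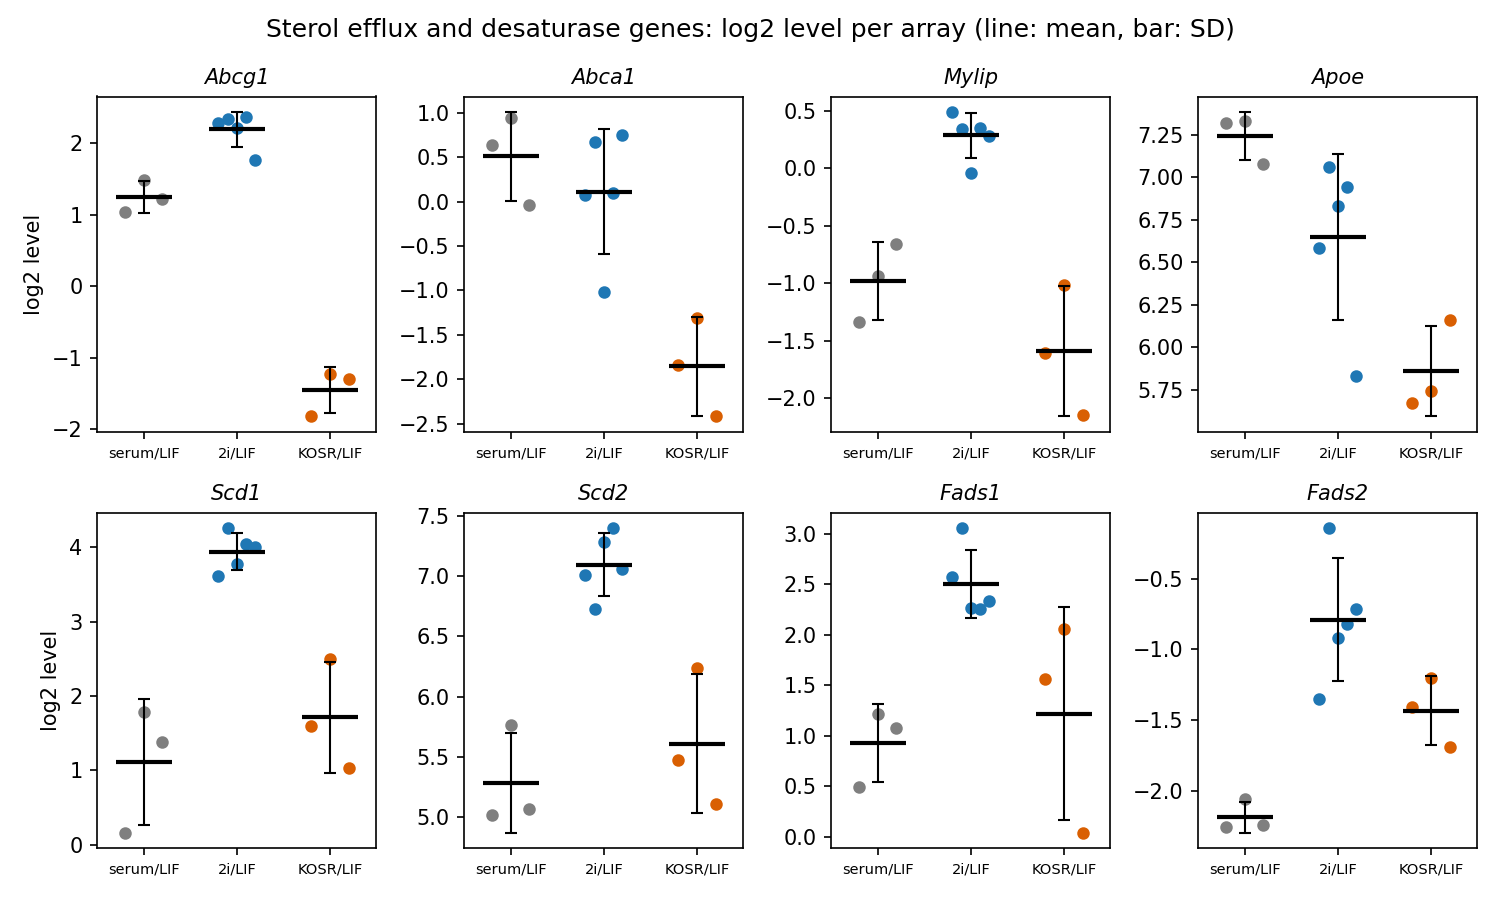
Log2 level per array (vertical axis, its range set for each gene; points) of 4 genes of sterol efflux and LXR (upper row) and 4 fatty acid desaturase genes (lower row) in serum/LIF (grey), 2i/LIF (blue) and KOSR/LIF (orange), with the mean as a line and the SD as a bar. Abcg1 is lowest on the 3 KOSR/LIF arrays, at -1.82 to -1.23, and Scd1 and Scd2 are highest on the 5 2i/LIF arrays.

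In the other lists, in this and the next paragraphs, few genes passed. Over all genes tested, 6.74% were higher and 9.98% lower in 2i/LIF against serum/LIF. These shares were 2.37% and 2.21% in KOSR/LIF against serum/LIF, and 5.95% and 8.72% in 2i/LIF against KOSR/LIF. Of 9 uptake and lysosomal genes, the lipoprotein receptor Scarb1 rose in 2i/LIF against serum/LIF by 1.28 (SE 0.32, adjusted p 0.0171), lost without serum/LIF replicate 1 or 3 (0.0526 to 0.097). The lysosomal lipase Lipa fell in 2i/LIF by 1.35 (SE 0.27, adjusted p 0.0042), which was -0.78 and did not pass with normexp background correction (adjusted p 0.0822). Against KOSR/LIF, 2i/LIF was higher for the lysosomal sterol carrier Npc2 (1.86, SE 0.48, adjusted p 0.0229) and lower for Lipa (-1.19, SE 0.27, adjusted p 0.0108, lost without KOSR/LIF replicate 2 at 0.0544). Npc2 was at 1.48 on KOSR/LIF replicate 3 and at 3.78 and 4.10 on the other KOSR/LIF arrays, and its change was 1.04 without replicate 3. None of the 9 passed in KOSR/LIF against serum/LIF by limma (0 at an unadjusted p under 0.05).

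Of 11 genes of sterol transfer inside the cell, 1 rose and 2 fell in 2i/LIF and 1 fell in KOSR/LIF against serum/LIF. Over all genes tested, 6.74%, 9.98% and 2.21% passed in those directions. Stard13, a lipid-binding GTPase regulator, was at -0.48, -1.43 and -0.44 in serum/LIF, at -5.08, -5.27, -5.01, -6.48 and -5.69 in 2i/LIF and at -2.62, -2.33 and -2.62 in KOSR/LIF. It was well above background on all 3 serum/LIF arrays, on 1 of 5 in 2i/LIF and on 2 of 3 in KOSR/LIF. The change was -4.72 (SE 0.36, adjusted p 7.7e-06) in 2i/LIF and -1.74 (SE 0.40, adjusted p 0.031) in KOSR/LIF, and 2i/LIF was lower than KOSR/LIF by 2.98 on the log2 scale (SE 0.36, adjusted p 0.000252). Most 2i/LIF values lie near background, and with normexp background correction these changes of Stard13 were -1.75 (adjusted p 0.000736), -0.71 (adjusted p 0.343) and -1.03 (adjusted p 0.0375). The call in KOSR/LIF was lost without serum/LIF replicate 1 or 3 or any 1 KOSR/LIF array (0.0667 to 0.128). Gramd1b, a sterol transporter at membrane contacts, rose in 2i/LIF by 1.01 against serum/LIF (SE 0.22, adjusted p 0.00727) and differed by 0.85 from KOSR/LIF (SE 0.22, adjusted p 0.0214). The latter was lost without 2i/LIF replicate 4 or KOSR/LIF replicate 1 or 2 (0.0519 to 0.0798). Gramd1c fell in 2i/LIF by 0.83 (SE 0.22, adjusted p 0.0228), lost without serum/LIF replicate 1 or 3 or 2i/LIF replicate 4 (0.0518 to 0.109).

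Of 12 genes of SREBP cleavage and sterol-sensed degradation, only Rnf145, a sterol-sensing ubiquitin ligase, passed. It fell by 1.08 in 2i/LIF (SE 0.23, adjusted p 0.00642) and by 1.15 in KOSR/LIF (SE 0.26, adjusted p 0.0281) against serum/LIF. The call in KOSR/LIF was lost without any 1 serum/LIF array or KOSR/LIF replicate 1 or 3 (0.0596 to 0.109). Of 13 genes that use isoprenoids, Nus1, a subunit of the enzyme that makes dolichol precursors, rose by 0.83 in 2i/LIF against serum/LIF (SE 0.21, adjusted p 0.0168), lost without serum/LIF replicate 2 or 3 (0.0673 to 0.0775). It was higher in 2i/LIF than in KOSR/LIF by 0.74 (SE 0.21, adjusted p 0.0345), lost in 8 of the 11 fits that left out 1 array, kept only without serum/LIF replicate 3, 2i/LIF replicate 2 or KOSR/LIF replicate 2 (0.0534 to 0.0981 where lost). With the mean of its probes the changes of Nus1 were -0.14 and 0.11 and neither passed, so the first turned its direction. Of 7 measured genes of sterol esterification and oxysterols, Lcat was lower in 2i/LIF than in KOSR/LIF by 1.54 on the log2 scale (SE 0.34, adjusted p 0.0101), with the probe well above background on 3 of 5 and 2 of 3 arrays. With normexp background correction that difference of Lcat was -0.70 and did not pass (adjusted p 0.23).

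Other settings ended further calls in these related lists. With normexp background correction the calls of Gramd1c, Nus1 and Me1 in 2i/LIF against serum/LIF and of Lipa, Nus1 and Acsl3 in 2i/LIF against KOSR/LIF were lost (adjusted p 0.0501 to 0.11), and the differences of Abca1 and Mylip between 2i/LIF and KOSR/LIF were 1.05 and 1.13. With median scaling Scarb1, Abcg1, Mylip, Gramd1b, Gramd1c, Rnf145, Nus1, Fads1 and Me1 no longer passed in 2i/LIF against serum/LIF (adjusted p 0.0561 to 0.248). With the slide as a block Scd1 (1.75, adjusted p 0.0825) and Abca1 (1.34, adjusted p 0.113) no longer passed in 2i/LIF against KOSR/LIF. Abcg1 and Scd2 kept their calls in that comparison under each of these.

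Markers of the cell type and of cells that ES cultures can hold were read beside these results. For all genes tested, 6.74% were higher and 9.98% lower in 2i/LIF against serum/LIF. The same shares were 2.37% and 2.21% in KOSR/LIF against serum/LIF, and 5.95% and 8.72% in 2i/LIF against KOSR/LIF. All 8 ES cell markers were well above background on all arrays. The sum of their levels on the linear scale, in units of the array's 75th percentile, lay between 641 and 869 in serum/LIF, between 619 and 892 in 2i/LIF and between 433 and 578 in KOSR/LIF. Such a sum is weighted toward the markers with the highest values, here chiefly Dppa5a. Of the 8, 2 fell in 2i/LIF (Tdgf1 and Dppa4) and 1 in KOSR/LIF (Sox2) against serum/LIF, where all 8 changes in KOSR/LIF were negative with a median of -0.90. In 2i/LIF against KOSR/LIF 3 were higher and 1 lower. Pou5f1, a core pluripotency factor, was at 3.69 on KOSR/LIF replicate 3 and at 5.65 to 6.27 on the other arrays. Nanog was at 1.21 on that array and at 2.93 and 3.45 on KOSR/LIF replicates 1 and 2. The median of -0.90 therefore rests in part on KOSR/LIF replicate 3, and it is not given without that array. For 10 primitive endoderm markers this sum lay between 37.5 and 40 in serum/LIF, between 12.8 and 23.1 in 2i/LIF and between 15.5 and 69.9 in KOSR/LIF. It came chiefly from Lama1 and Lamb1, whose changes in KOSR/LIF against serum/LIF were -0.22 and -0.68. The median log2 level of the 10 lay between -3.11 and -1.81 in serum/LIF. It lay between -4.33 and -3.27 in 2i/LIF and between -2.23 and 0.91 in KOSR/LIF. Of these 10, 3 fell in 2i/LIF and 1 rose in KOSR/LIF against serum/LIF, and 8 were lower in 2i/LIF than in KOSR/LIF. In KOSR/LIF against serum/LIF, 7 of the 10 changes were positive and 3 negative. The marker that passed there was Gata4 (2.16, SE 0.38, adjusted p 0.0101). The endoderm factor Gata6 was at 1.90 and 1.17 on KOSR/LIF replicates 1 and 2 and between -5.77 and -2.24 on the other 9 arrays. Its change in KOSR/LIF against serum/LIF did not pass (3.49, SE 1.1, adjusted p 0.103). For 7 measured fibroblast markers this sum lay between 3.72 and 13.4 in serum/LIF, between 1.87 and 2.53 in 2i/LIF and between 7.11 and 12.4 in KOSR/LIF, and 3, 1 and 3 markers passed in the same comparisons and directions. Sox7 and the fibroblast matrix gene Dcn were above background on no 2i/LIF array, and Lum on no KOSR/LIF array. The part of these cell types in the sterol results was not tested.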

How the data were processed

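One array was measured for each of 11 samples. The deposited scanner intensities are on a linear scale, with background subtracted by the scanner software (Feature Extraction 11.0.1.1) and no scaling between arrays, per the file headers. The authors' deposited value table also holds intensities, and its processing is not stated in the labels or files read here. The log2 of each intensity, minus the array's 75th percentile, was computed here. Of 62976 spots, 59305 were not controls, and unflagged spots were averaged to 55681 probes (33 left out). RefSeq accessions marked 29109 probes, of which 27642 were matched to a symbol (RefSeq table of GRCm38.p6, names only). A probe entered if well above background on at least 3 of 11 arrays, and the probe with the highest mean stood for a gene. limma 3.58.1 in R 4.3.3 was fitted over all arrays (two-sided). The script was tested on simulated data. Members and gene lists were chosen with earlier results of these data known. Named genes were all members, with values per array for those that passed and the regulators, and up to 3 passing genes of each related list with the largest change in a comparison. Of the related and marker genes, Abcg5, Abcg8, Ch25h and Postn had no probe past the filter. Promoter windows came from RefSeq. The protein comparison planned for Insig1 with Insig2 and Tm7sf2 with Lbr was not made here. Alternatives (another background correction, scaling, filter or probe rule, blocks, left-out arrays and the authors' table) are given in the closing section.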

Additional observations from a re-analysis of the deposited data

Results flagged for a closer look

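In 26 tests, 1 for each sterol gene over the 5 arrays of 2i/LIF, 3 single arrays stood further from the nearest of the others than Dixon's critical value of 0.71 of the range allows. Chance alone would give about 1 in 20 such tests. Mvk was at 3.27 on 2i/LIF replicate 2 and at 4.04 to 4.33 on the other arrays (0.729 of the range). Idi1 was at 2.95 on the same array and at 3.92 to 4.31 on the others (0.716). Ggps1 was at 1.23 on 2i/LIF replicate 1 and at 0.64 to 0.77 on the others (0.777). The groups of 3 arrays were not tested in this way.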

How the results depend on the processing

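No member of the sterol list that passed changed sign under any alternative run. In 2i/LIF against serum/LIF the 8 members higher became 5 with normexp background correction (on the median spot signal), 3 with median scaling, 16 with the authors' deposited table (18 minus its KOSR/LIF replicate 3 column, an alternative chosen after seeing the data), 5 with no filter on dim probes, 14 with only the 2 media compared, 20 with a slide block, 18 with a scan day block, 0 within scan day 3 and 4 without 2i/LIF replicates 1 and 5. Leaving out 1 array gave 4 to 15. The 1 member lower (Ggps1) became 0 with normexp, median scaling, no filter, the mean of a gene's probes, scan day 3 alone and both cell line blocks, and 0 to 1 with 1 array left out. In KOSR/LIF against serum/LIF the 2 higher became 0 with normexp and with median scaling, 4 with the authors' deposited table and with the slide block, and 1 with no filter, with only the 2 media and within scan day 1. Leaving out 1 array gave 0 to 3, and the median change of 0.59 became 0.22 with median scaling and 0.39 with normexp. In 2i/LIF against KOSR/LIF the 1 higher became 0 without 2i/LIF replicates 1 and 5 and 0 to 2 with 1 array left out. The 0 lower became 1 with the scan day block, within scan day 1 and without 2i/LIF replicates 1 and 5, and the median of 0.24 became 0.53 with median scaling, 0.36 with normexp, 0.17 with the authors' deposited table (0.04 minus its KOSR/LIF replicate 3 column), 0.14 with quantile normalization, 0.13 with the scan day block and 0.12 with the slide block. The cause of these moves was not tested. With the replicate number as a block, 4 members were higher and 0 lower in 2i/LIF, 1 was higher in KOSR/LIF against serum/LIF and 0 were higher in 2i/LIF against KOSR/LIF. Same-numbered arrays correlated between -0.202 and 0.183 in their deviations from the group means, and not every array correlated best with its own number. By title, same-numbered serum/LIF and 2i/LIF arrays also share a cell line, but the source names give other lines for those 2i/LIF arrays. Correlations of so few arrays cannot show whether the arrays were paired. Scan day 3 holds 1 serum/LIF array, assumed in that fit to vary like the 2i/LIF arrays, so its count of 0 says little. Scan day 2 holds 1 array in each of 2 media, 2i/LIF replicate 2 and KOSR/LIF replicate 3, so no test was made for it. Arrays alone on their slide give the slide block no information. Signal over background limits Srebf1, Abca1, Mylip, Stard13 and Lcat.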
